A study of Mus musculus with 55 samples.

Results

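The regions described here are stretches of the mouse genome that held both the coactivators CBP and p300 and the histone mark H3K27ac in epiblast stem cells (EpiSCs) after 24 h of Wnt and Fgf stimulation. They are the regions of the single CBP-P300 list that overlapped, by at least 1 bp, a region of both H3K27ac replicates of the same cells. They were thus chosen by their measured CBP-P300 and H3K27ac, which are no finding here. The rule gave 10448 of 13549 CBP-P300 regions (77.1%). Of the remaining regions, 1603 (11.8%) overlapped H3K27ac in 1 replicate and 1498 (11.1%) in neither. The CBP-P300 library had no replicate, and no CBP-P300 or EpiSC H3K27ac list of unstimulated cells was used here.

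CBP and p300 are closely related acetyltransferases that transcription factors bring to enhancers and promoters, where they place acetyl groups on histones, among them the one at lysine 27 of histone H3. Regions that carry both the enzymes and the mark are commonly read as active regulatory elements. Cdx2 is a homeodomain factor and T (Brachyury) a T-box factor, and both act in the progenitors that extend the trunk and tail. ATAC-seq marks accessible chromatin by the sites into which a transposase can insert.

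The series holds 55 mouse samples and asks how Cdx factors and T act in the posterior embryo and in EpiSCs. The ChIP cells were WT EpiSCs derived from E6.0 pre-streak embryos, kept in IWP2 (2 µM), an inhibitor of Wnt secretion, beside Activin A and Fgf-basic. After feeder-free passages IWP2 was withdrawn, and Chiron (3 µM), an inhibitor of GSK3, and Fgf8 (120 ng/ml) were added for 24 h before ChIP for CBP-P300 (1 library), H3K27ac, Cdx2 and T (2 libraries each). Chromatin was crosslinked for 15 min for CBP-P300, Cdx2 and T and for 10 min for H3K27ac. ATAC-seq was done on CdxKO EpiSCs after 48 h with Chiron (3 µM) and no Fgf8, and on CdxKO EpiSCs kept in IWP2, with 1 library each. The accessibility data thus differ from the ChIP data in genotype, duration and agent, and the culture text of the IWP2 sample also mentions Wnt3 null cells. H3K27ac was further mapped in tailbud and in anterior tissue of WT E9.5 embryos, with 2 libraries each. Per the labels, the antibody batch used for replicate 1 of both tissues also recognises H3K9ac, so replicate 2 is given first throughout. The labels name the CBP-P300 antibody by its catalogue number and do not say which form of the proteins it recognises. Nor do they tell if the replicates are separate cultures or litters, so their spread may be technical. RNA was counted in EpiSCs titled WT and Null after 24 h with Chiron (3 µM) and Fgf8 (120 ng/ml), with 2 libraries each. The culture protocol of the Null libraries starts from CdxKO embryos but also mentions Wnt3 null cells, so their genotype is not certain.

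The lists hold positions on mm9 with no score or read count, so a region is present in a list or absent from it, and the depth behind each call is unknown. The intervals below are 95% Wilson intervals for shares and Newcombe intervals for differences of shares. They cover the counting of regions alone, since regions of 1 library are not replicates. Overlap with the 8 input lists was rare and touched 18 of the 10448 regions (0.172%).

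RNA of the same kind of culture gave a check of the cell label. In WT EpiSCs at 24 h, Pou5f1 and Sox2, factors of the pluripotent epiblast, had 57.3 and 146 CPM in replicate 1 and 53.6 and 152 CPM in replicate 2. Nanog was not detected in either library, where 3 counts would be 1.03 and 1.89 CPM. T had 516 and 408 CPM and Cdx2 29.8 and 13.2 CPM. Ep300, which encodes p300, had 22.6 and 14.5 CPM, and Crebbp, which encodes CBP, had 5 and 3 counts in all. The libraries thus held transcripts of epiblast and of primitive streak genes. Otx2, another epiblast factor, had 3 counts in each library. Markers of other cell types were present too. The endoderm markers Sox17, Foxa2 and Gata6 summed to 46.7 and 49.2 CPM, of which Gata6 gave 32.2 and 34.7 CPM. The fibroblast markers Col1a1, Col1a2, Col3a1, Thy1 and Dcn summed to 108 and 141 CPM, with Dcn at 2 and 5 counts. The part of such cells in the region lists was not tested.

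The chosen regions were narrow, with a median width of 358 bp, quartiles of 266 and 508 bp and a range of 199 to 3736 bp. CBP-P300 regions with H3K27ac in neither replicate had a median of 262 bp and those with it in 1 replicate 287 bp. Counted once for each chosen region, the H3K27ac regions that held them had median widths of 1631 bp in replicate 1 and 1665 bp in replicate 2. The rule chose by overlap with these regions, which favours wide ones, so the widths are a description. In both replicates H3K27ac covered the whole length of 8886 of them (85.0%). Of the 27065 H3K27ac regions of replicate 1, 31.6% held at least 1 of the chosen regions. Among these, 6977 held 1, 1298 held 2 and 275 held 3 or more. The share of CBP-P300 regions that qualified lay between 69.5% on chromosome 8 and 85.2% on chromosome 3.

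At the threshold of the rule, 107 chosen regions had under 100 bp covered by H3K27ac in 1 replicate, and 90 regions missed the rule by lying under 100 bp from H3K27ac of the second replicate. In the Chiron ATAC library 55.1% of the regions just inside and 53.3% of those just outside were open. In IWP2 the shares were 51.4% just inside and 44.4% just outside. Of the regions just inside, 86.9% were acetylated in tailbud replicate 2 and 85.0% in anterior replicate 2, against 81.1% and 73.3% of those just outside. In replicate 1 the shares just inside were 68.2% in tailbud and 47.7% in anterior tissue, against 60% and 45.6% just outside. The regions just inside were the higher ones in all 6 lists, by 1.81 to 11.7 points, but the intervals overlapped in each list. In anterior replicate 2, where the difference was largest, they were 77.1 to 90.6% inside and 63.4 to 81.4% outside. The 6 lists score the same regions, so they do not count as separate checks.

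Most of the acetylated CBP-P300 regions were open in CdxKO EpiSCs, under both conditions. In cells with Chiron for 48 h, 9387 of 10448 were open (89.8%, interval 89.3 to 90.4%), against 79.1% of all CBP-P300 regions, 45.3% of those with H3K27ac in 1 replicate and 40.6% of those with it in neither. In cells in IWP2, 9044 were open (86.6%, interval 85.9 to 87.2%), against 75.8% of all CBP-P300 regions, 41.4% of those with H3K27ac in 1 replicate and 37.7% of those in neither. The chosen regions exceeded those without H3K27ac by 49.3 percentage points with Chiron (interval 46.7 to 51.8) and by 48.9 points in IWP2 (interval 46.3 to 51.4). Acetylated CBP-P300 regions were thus open more than 2 times as often, with 1 library behind each value and no test across libraries. Weighted to the same mix of widths, the differences were 49.6 points with Chiron and 48.3 points in IWP2. Among regions below 500 bp, 88.5% of the chosen ones and 40.7% of those without H3K27ac were open with Chiron.

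**Figure D1:**
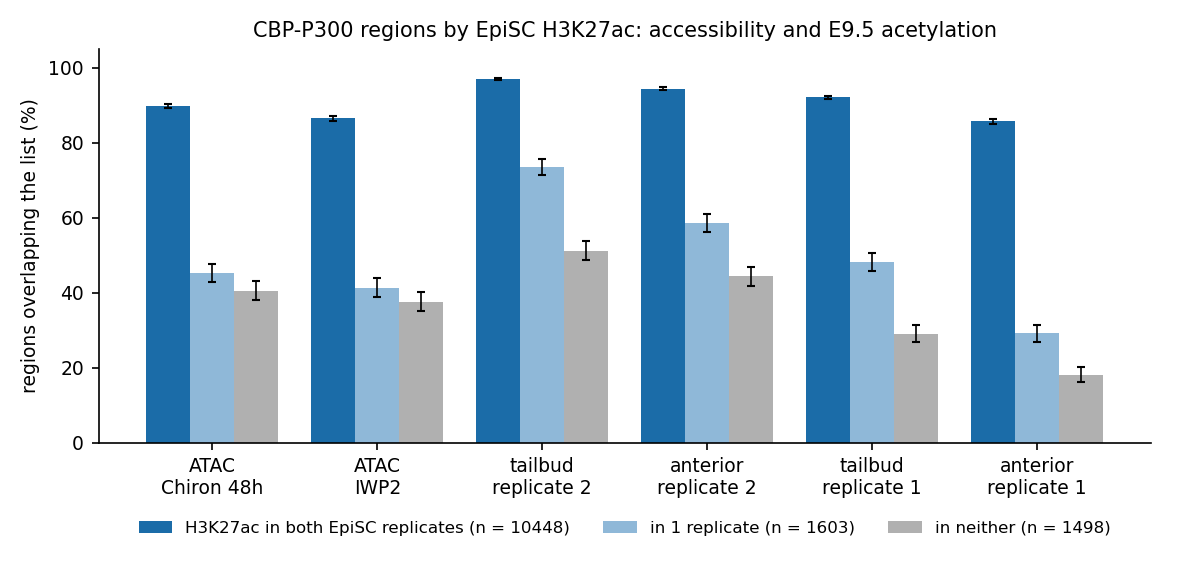
Share of CBP-P300 regions (%) that overlapped each of 6 lists, for regions with H3K27ac in both EpiSC replicates, in 1 and in neither, with bars for 95% Wilson intervals. The regions with H3K27ac in both replicates are highest in every list, between 85.8% and 97.1%, and those with it in neither lie between 18.1% and 51.3%.

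Few of the regions changed state between the ATAC libraries. Of the 10448, 8935 (85.5%) were open in both, 452 (4.33%) with Chiron alone, 109 (1.04%) in IWP2 alone and 952 (9.11%) in neither. Over all CBP-P300 regions, 5.14% were open with Chiron alone and 1.82% in IWP2 alone. Among the 561 chosen regions open in 1 of the libraries, 80.6% were the Chiron ones (exact Clopper-Pearson interval 77.0 to 83.8%). That share was 73.8% (interval 70.9 to 76.6%) over all CBP-P300 regions and 65.7% (interval 58.6 to 72.2%) in those with H3K27ac in 1 replicate. It was 62.0% (interval 54.5 to 69.0%) in CBP-P300 regions without H3K27ac. Over all ATAC regions it was 54.8%, where 11863 were found with Chiron alone and 9788 in IWP2 alone. That value counts ATAC regions that missed the other list and not CBP-P300 regions, so it is not directly comparable. With overlap of at least 1 bp, the acetylated regions that differed between the ATAC libraries thus leaned further towards the Chiron library than CBP-P300 regions as a whole. The acetylation that chose them was itself measured in Chiron-treated cells.

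Acetylation in the embryo was frequent at these regions in both tissues. In replicate 2, 97.1% were acetylated in tailbud and 94.5% in anterior tissue, against 89.3% and 84.8% of all CBP-P300 regions. In replicate 1, 92.2% were acetylated in tailbud and 85.8% in anterior tissue, against 80% and 71.6% of all CBP-P300 regions. Of CBP-P300 regions without EpiSC H3K27ac, 51.3% and 44.5% were acetylated in tailbud and anterior tissue of replicate 2, and 29.0% and 18.1% in replicate 1. In all 4 E9.5 libraries, 8846 of the chosen regions (84.7%) carried the mark, against 69.9% of all CBP-P300 regions and 14.2% of those without EpiSC H3K27ac. No E9.5 library marked 219 of them (2.096%), against 41.7% of the regions without EpiSC H3K27ac. H3K27ac regions of EpiSC replicate 1 that replicate 2 shared and that met no CBP-P300 region were also mostly acetylated (n = 12919). In replicate 2, 86.8% of these were marked in tailbud and 82.8% in anterior tissue, and in replicate 1 77.4% and 68.5%. In bulk tissue, a region marked in fewer cells and one marked less in each cell cannot be told apart.

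Tailbud acetylated slightly more of the regions than anterior tissue did. The difference was 2.57 percentage points in replicate 2 and 6.34 points in replicate 1, with a mean of 4.46 ± 2.66 points (SD, n = 2 pairs). An exact two-sided permutation test over the 4 libraries gave p = 0.667, where 2 libraries against 2 cannot go below 0.333. Tailbud was higher within both replicate numbers, and the exact permutation test within these pairs gave p = 0.5, the smallest that 2 pairs allow. Neither test could pass a threshold of 0.05 in this design. The tailbud lists were also longer, with 76071 regions over 83.2 Mb against 61674 over 69.5 Mb in anterior tissue in replicate 2, and 39284 over 38.4 Mb against 28599 over 27.4 Mb in replicate 1. The part of list length in the difference was not tested. Among chosen regions marked in 1 tissue of replicate 2, 351 were marked in tailbud and 82 in anterior tissue, a tailbud share of 81.1% (exact interval 77.0 to 84.6%) against 64.1% over all E9.5 regions of that replicate. In replicate 1 the counts were 781 and 119, a tailbud share of 86.8% (exact interval 84.4 to 88.9%) against 76.2% over all E9.5 regions. The shares over all E9.5 regions count regions of 1 tissue that missed the other tissue's list, which is a different unit. Other CBP-P300 regions shared the lean to tailbud. In replicate 2 the tailbud share was 76.8% over all CBP-P300 regions, 80.6% with EpiSC H3K27ac in 1 replicate and 66.3% with it in neither. In replicate 1 the same shares were 85.6%, 87.1% and 79.3%. Regions marked in both tailbud libraries and no anterior one numbered 164 of 10448 (1.57%), against 2.57% of all CBP-P300 regions. The reverse pattern was found at 15 (0.144%), against 0.303% of all CBP-P300 regions.

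Accessibility in the cultured cells and acetylation in the embryo went together. Of the regions open in both ATAC libraries, 93.1% carried H3K27ac in all 4 E9.5 libraries. The share was 42.0% for regions open with Chiron alone, 45.0% for those open in IWP2 alone and 30.0% for those open in neither. Regions both open in the 2 ATAC libraries and acetylated in all 4 E9.5 libraries made up 79.6% of the chosen ones, against 64.6% of all CBP-P300 regions and 9.41% of those without EpiSC H3K27ac. The less constantly open regions also showed the wider gap between tissues. At regions open with Chiron alone, 91.8% were acetylated in tailbud and 83.6% in anterior tissue in replicate 2, and 74.3% and 46.5% in replicate 1. At regions open in neither ATAC library, the values were 79.8% in tailbud and 60.7% in anterior tissue in replicate 2, and 58.1% and 33.2% in replicate 1. At regions open in both, they were 99.3% and 98.9% in replicate 2 and 96.98% and 93.9% in replicate 1. The gap between tissues was thus smallest where chromatin was open in both ATAC libraries and where nearly every region was already marked.

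**Figure D2:**
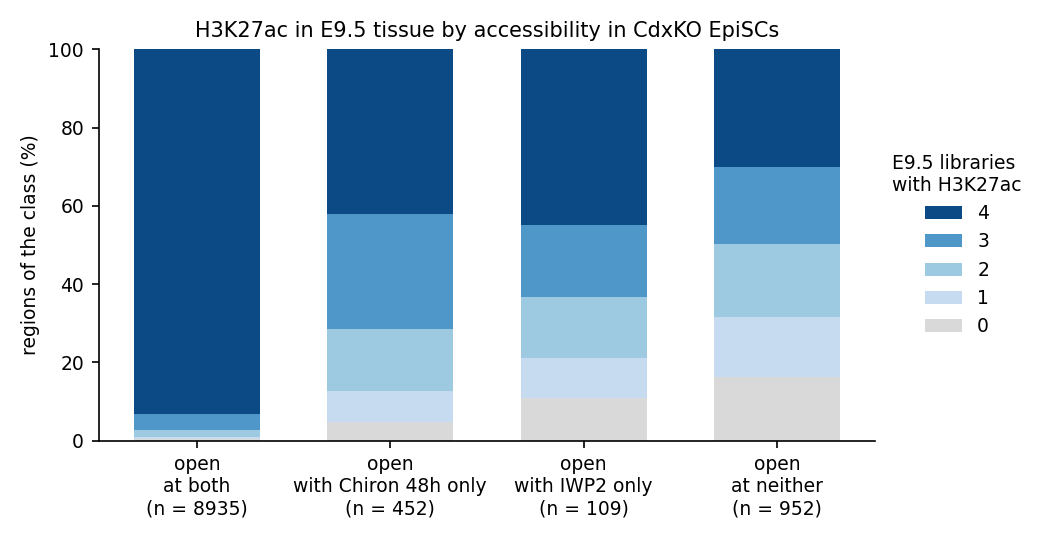
Acetylated CBP-P300 regions by their accessibility in CdxKO EpiSCs, as the share of each class (%) that carried H3K27ac in 0 to 4 of the E9.5 libraries, 2 of tailbud and 2 of anterior tissue. The share marked in all 4 is 93.1% where chromatin was open in both ATAC libraries and 30.0% where it was open in neither.

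Direct overlap with Cdx2 or T was rare. Regions of both Cdx2 replicates overlapped 66 of the 10448 (0.632%, interval 0.497 to 0.803%), with a further 29 in replicate 1 alone and 51 in replicate 2 alone. Over all CBP-P300 regions the share was 0.657%, and over those without EpiSC H3K27ac 0.734%. Both T replicates overlapped 11 (0.105%, interval 0.0588 to 0.188%), with 18 more in replicate 1 alone and 9 in replicate 2 alone, against 0.148% of all CBP-P300 regions and 0.200% of those without EpiSC H3K27ac. The difference between chosen regions and those without EpiSC H3K27ac was -0.103 points for Cdx2 (interval -0.694 to 0.264) and -0.0950 points for T (interval -0.485 to 0.0611). Both intervals include 0. In regions with H3K27ac in 1 replicate, Cdx2 was found at 0.749% and T at 6 of 1603 (0.374%, interval 0.172 to 0.814%). A Cdx2 site within 10 kb was less frequent at chosen regions, with 4.29% (interval 3.92 to 4.69%) against 5.81% (interval 4.73 to 7.11%) of those without EpiSC H3K27ac. Regions with H3K27ac in 1 replicate had 5.99% (interval 4.93 to 7.26%). Chosen regions make up 77.1% of all CBP-P300 regions, so the share over all of them lies close to that of the chosen ones. None of the regions overlapped both factors in all 4 lists, 5 overlapped each factor in at least 1 list, and 10269 overlapped neither factor in any list. The shares depend on the definition: with a region of either replicate they were 1.40% for Cdx2 and 0.364% for T, and where a region of both replicates had to cover the midpoint 0.0393% and 0.0196%.

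Seen from the binding sites, the share was larger for Cdx2 than for T. Merging regions that overlapped between replicates gave 1075 Cdx2 sites and 767 T sites. Of these, 92 Cdx2 sites (8.56%, interval 7.03 to 10.4%) and 18 T sites (2.35%, interval 1.49 to 3.68%) touched a chosen region. Any CBP-P300 region was touched by 121 Cdx2 sites (11.3%) and 29 T sites (3.78%). The order of the 2 factors was thus the same over all CBP-P300 regions. Of the Cdx2 sites, 822 met neither a CBP-P300 region nor H3K27ac shared by both EpiSC replicates, and so did 659 of the T sites. The Cdx2 sites that touched a chosen region were open with Chiron at 75.0% and in IWP2 at 63.0%, against 25.3% and 19.2% of the 822. Cdx2 sites with H3K27ac of both EpiSC replicates but no CBP-P300 region lay between, at 64.4% with Chiron and 51.5% in IWP2 (n = 132). The T sites that touched a chosen region were open with Chiron at 83.3% and in IWP2 at 33.3% (15 and 6 of 18), against 34.3% and 12.7% of the 659. T sites with H3K27ac of both EpiSC replicates but no CBP-P300 region had 68.4% with Chiron and 30.4% in IWP2 (n = 79).

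Where binding sites met the regions, they lay at the edge rather than the middle. Regions of Cdx2 replicate 1 overlapped 95 of them, and in these Cdx2 covered a median of 91 bp or 17.2% of the length and reached the midpoint of 11. For Cdx2 replicate 2 the overlap was a median of 93 bp or 16.4% of the length, and it reached the midpoint of 18 of 117. T replicate 1 reached the midpoint of 4 of 29 and T replicate 2 that of 3 of 20. The Chiron ATAC library covered the midpoint in 91.8% of the regions it overlapped, and tailbud replicate 2 in 99.0%. Their regions were far wider, with medians of 1376 and 2244 bp where they held a chosen region, against 266.5 and 240 bp over the Cdx2 lists, so these shares are not comparable. Of the 92 Cdx2 sites that touched a chosen region, 70 (76.1%, interval 66.4 to 83.6%) had their own centre outside it, and so did 14 of the 18 T sites. These positions were examined after the data had been seen.

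The distance from the centre of each region to the centre of the nearest Cdx2 site showed the same offset. There were 3 regions at 0 to 99 bp, 15 at 100 to 199 bp, 29 at 200 to 299 bp, 40 at 300 to 399 bp, 61 at 400 to 499 bp and 35 at 500 to 599 bp. Farther out the number fell to 17 at 600 to 699 bp and 10 at 700 to 799 bp. For T there were 0 regions at 0 to 99 bp, 2 at 100 to 199 bp and 11 each at 200 to 299 and 300 to 399 bp. CBP-P300 regions without EpiSC H3K27ac showed a like offset for Cdx2, with 2 at 0 to 99 bp and 17 at 300 to 399 bp.

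**Figure D3:**
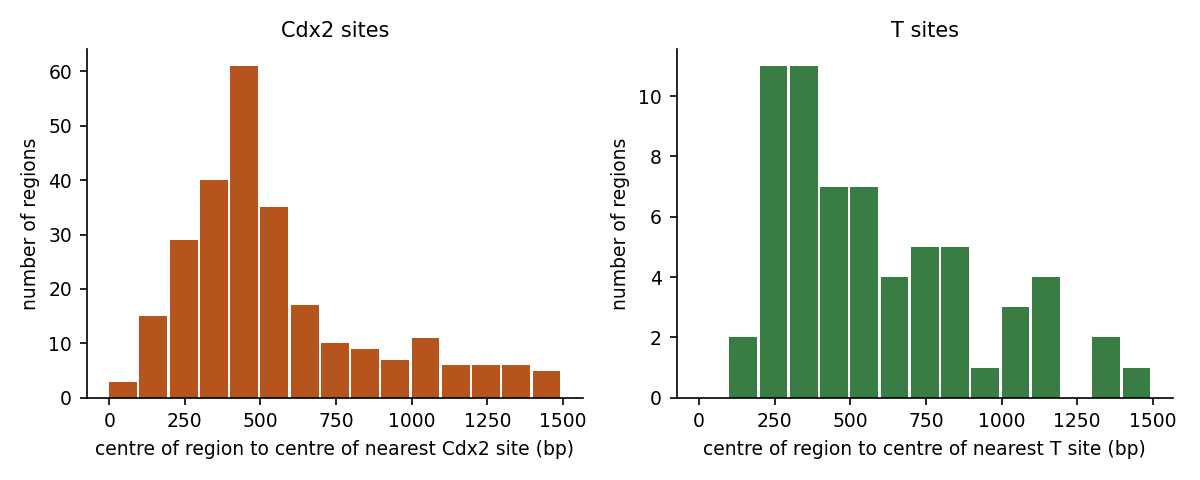
Number of acetylated CBP-P300 regions by the distance (bp, in steps of 100) from their centre to the centre of the nearest Cdx2 site, left, or T site, right. The Cdx2 counts are highest at 400 to 499 bp, with 61 regions, and low at 0 to 99 bp, with 3.

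Many of the regions came in close pairs. Another chosen region lay within 1 kb of 4263 of them (40.8%), although the median gap to the nearest other one was 9.43 kb. These form 2357 neighbouring pairs with a median gap of 283 bp and quartiles of 179 and 447 bp. Spacing and gaps were examined for the chosen regions alone. Whether other CBP-P300 regions pair as often, or show the same pattern in their gaps, was not tested. The middle of the gap was open with Chiron in 85.3% of pairs (interval 83.8 to 86.7%), against 78.0% of the midpoints of the paired regions themselves and 53.4% of points as far outside the pair. In IWP2 the shares were 80.6% in the gap, 73.6% at the midpoints and 47.9% outside. EpiSC H3K27ac covered 83.3% of gaps against 78.3% of outside points in replicate 1, and 86.0% against 77.3% in replicate 2. Its cover of the midpoints, 98.6% and 98.3%, is high by the rule, which asked for H3K27ac at each region. The rule also favours the gaps, since each lies between chosen regions and a point outside does not. The gap and outside values of EpiSC H3K27ac are thus a description. Points outside that lay in a CBP-P300 region (220) were left out.

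Cdx2 followed the gaps. Replicate 1 covered the middle of 39 of 2357 gaps (1.65%, interval 1.21 to 2.25%), against 4 of 4263 midpoints (0.0938%) and 26 of 4494 points outside the pair (0.579%). Replicate 2 covered 53 gaps (2.25%, interval 1.72 to 2.93%), against 10 midpoints (0.235%) and 46 outside points (1.02%). T covered 8 gaps, 2 midpoints and 10 outside points in replicate 1, and 6, 1 and 6 in replicate 2, with shares of 0.339% and 0.255% of gaps. The intervals for T in gaps overlap those outside the pair. Among the 1075 Cdx2 sites, 35 (3.26%) had their centre in such a gap, as did 6 of the 767 T sites.

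**Figure D4:**
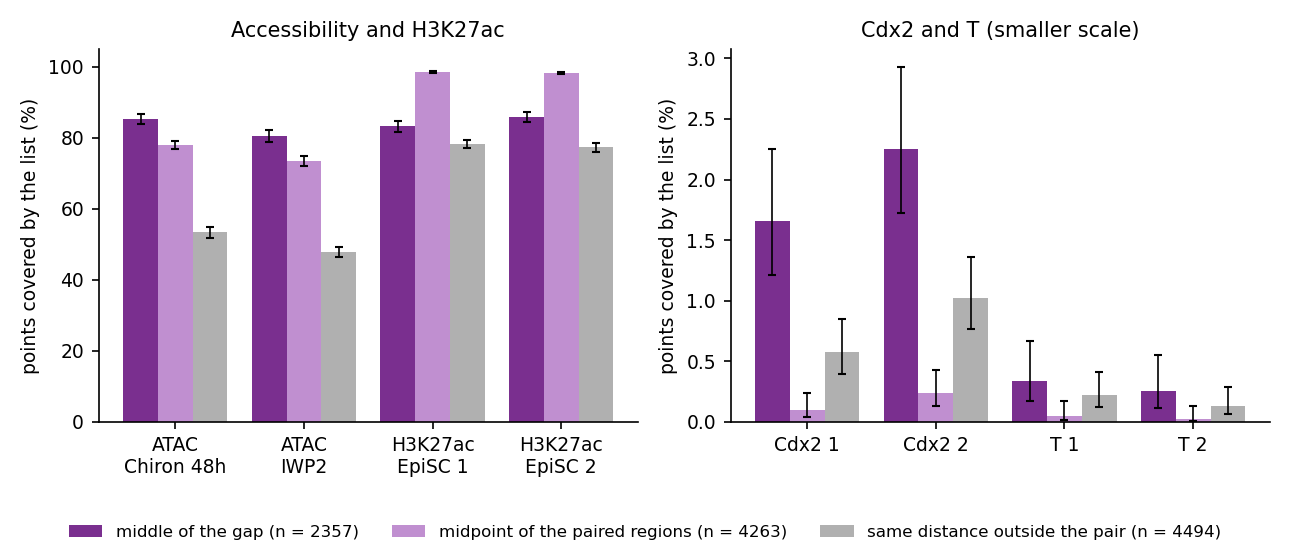
Points in and around 2357 pairs of acetylated CBP-P300 regions that lie within 1 kb of each other: the share (%) of gap middles, of midpoints of the paired regions and of points at the same distance outside the pair that each list covered, with 95% Wilson intervals. ATAC and Cdx2 cover the gap more often than the paired regions, with 85.3% against 78.0% for the Chiron ATAC library. EpiSC H3K27ac is high at the midpoints by the rule. It covers the gap more often than the points outside, but the rule favours the gap too, which lies between chosen regions.

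Since the sites that touched a region mostly had their centre outside it, regions with a site within 1 kb were also grouped. Most sites lay elsewhere: 189 of the 1075 Cdx2 sites and 50 of the 767 T sites were within 1 kb of a chosen region. A Cdx2 site lay that near to 251 regions and a T site to 63, while 10000 had no Cdx2 site and 10294 no T site within 10 kb. Regions near Cdx2 were less often open than those far from it, with 60.2% against 90.8% open with Chiron and 48.6% against 87.9% in IWP2. The differences were -30.6 points (interval -36.8 to -24.8) and -39.3 points (interval -45.4 to -33.1). Regions near T were open at 63.5% against 90.1% with Chiron and at 33.3% against 87.0% in IWP2, with differences of -26.6 points (interval -39.0 to -15.8) and -53.7 points (interval -64.1 to -41.4). A larger part of them was open with Chiron alone, and a larger part was open in neither library. The Chiron class held 13.9% of the regions near Cdx2 against 3.91% of those far from it. Near T it held 21 of 63 (33.3%, interval 22.9 to 45.6%) against 4.12% far from it. Open in neither were 37.5% near Cdx2 against 8.21% far from it, and 33.3% near T against 8.86%. Those open in IWP2 alone made up 2.39% near Cdx2 against 0.99%, and 3.17% near T against 1.04%. The ATAC cells were CdxKO by their label, whereas the Cdx2 sites were mapped in WT cells. The RNA libraries titled Null have a culture protocol that starts from CdxKO embryos but also mentions Wnt3 null cells. After 24 h with Chiron and Fgf8 they still held Cdx2 counts. Their levels were 9.87 and 12.1 CPM (21 and 19 counts), against 29.8 and 13.2 CPM in WT libraries. Whether these counts come from outside a deleted part of the gene was not tested, so they do not check the label.

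In the embryo, regions near Cdx2 were acetylated less often in anterior tissue, and to a smaller extent in tailbud. In replicate 2, 90.0% of them were acetylated in tailbud against 97.3% of those far from Cdx2, and 70.9% in anterior tissue against 95.2%. In replicate 1 the values were 80.5% against 92.55% in tailbud and 50.6% against 86.9% in anterior tissue. The difference between near and far was -7.27 points in tailbud (interval -11.6 to -4.13) and -24.3 points in anterior tissue (interval -30.2 to -19.0) in replicate 2. Near T, 85.7% were acetylated in tailbud against 97.2% of those far from T, and 60.3% in anterior tissue against 94.8%, in replicate 2. In replicate 1 the values were 71.4% against 92.4% in tailbud and 39.7% against 86.3% in anterior tissue. Both tailbud libraries and no anterior library marked 35 of the 251 regions near Cdx2 (13.9%, interval 10.2 to 18.8%), against 1.23% of those far from it, and 9 of the 63 near T (14.3%, interval 7.70 to 24.97%), against 1.48% of those far from it. The reverse pattern was found at 1 region near Cdx2 and 0 near T, and was rare throughout. The lean to tailbud was not particular to chosen regions. Of the 822 Cdx2 sites with no CBP-P300 region and no shared EpiSC H3K27ac, 56.3% were acetylated in tailbud and 24.0% in anterior tissue in replicate 2. Cdx2 sites that touched a chosen region had 94.6% and 78.3%. The 659 T sites with neither had 22.2% and 7.28%, and T sites that touched a chosen region 83.3% and 61.1% (n = 18).

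**Figure D5:**
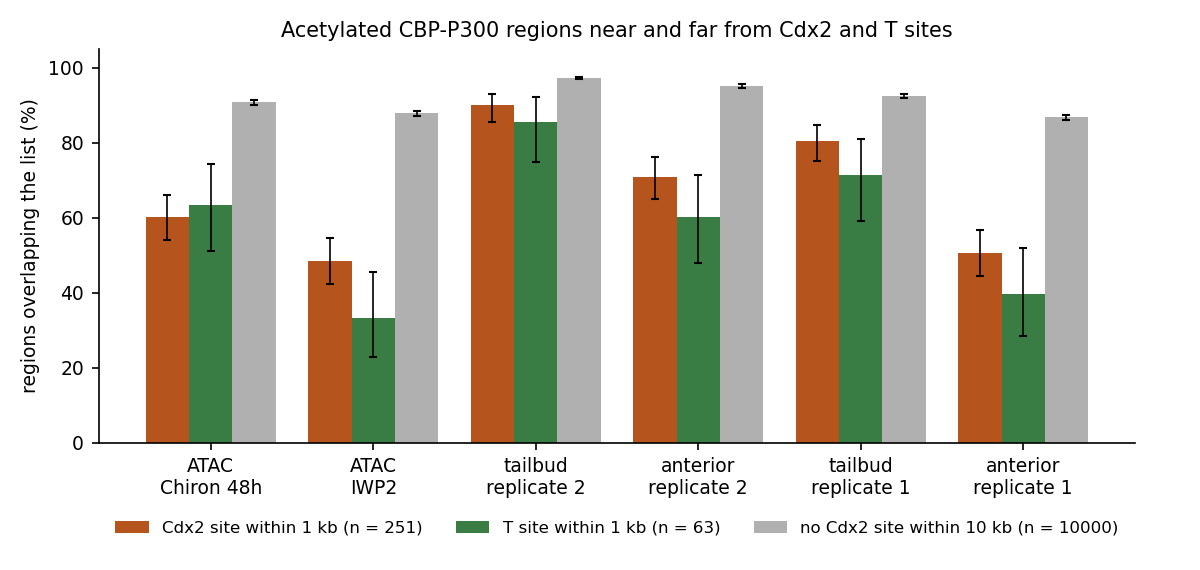
Share of acetylated CBP-P300 regions (%) that overlapped each of 6 lists, for those with a Cdx2 site within 1 kb, with a T site within 1 kb and with no Cdx2 site within 10 kb, with 95% Wilson intervals. Near Cdx2 the tailbud share is 90.0% and the anterior share 70.9% in replicate 2, whereas far from it both are above 95%.

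The stricter set that Cdx2 overlapped directly in both replicates showed the same order of tissues. Of these 66 regions, 95.5% were acetylated in tailbud and 81.8% in anterior tissue in replicate 2, and 89.4% and 62.1% in replicate 1. Tailbud exceeded anterior tissue by 20.5 ± 9.64 points (SD, n = 2 pairs), and every tailbud library lay above every anterior one, which gave the smallest p that 4 libraries allow in the exact permutation test (p = 0.333). Regions overlapped by neither factor in any list had a difference of 4.21 ± 2.57 points, computed from the same libraries. With Chiron 71.2% of the 66 were open and in IWP2 66.7%.

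Both tailbud libraries and no anterior one marked 6 of these 66 regions (9.09%, interval 4.23 to 18.4%) and 1 of the 11 that T overlapped in both replicates, against 1.57% of all chosen regions. None showed the reverse, which at 0.144% of all chosen regions would be rare in sets of this size. Of the 5 widest of the 7, Cdx2 in both replicates overlapped chr8:90900306-90901817 (1512 bp), chr4:116944660-116945376 (717 bp), chr4:135123206-135123753 (548 bp) and chr10:18228075-18228583 (509 bp), all on mm9. T in both replicates overlapped the remaining one, chr6:87052854-87053361 (508 bp). The region on chromosome 4 at 135123206 was open with Chiron alone, and the other 4 were closed in both ATAC libraries. None of the 5 was open in IWP2.

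The 11 regions that T overlapped in both replicates fell into 3 kinds. Open in both ATAC libraries and acetylated in all 4 E9.5 libraries were chr2:155781890-155782584, chr4:8837003-8837474, chr6:122290088-122290688 and chr7:134889239-134889524. Open with Chiron alone were 5. Of these, chr4:107406442-107406853, chr6:52065680-52065938 and chr11:52930087-52930459 carried H3K27ac in both tailbud libraries and in anterior replicate 2. The region chr17:15567687-15568018, which Cdx2 replicate 2 also overlapped, carried it in tailbud replicate 2 alone, and chr1:83986064-83986312 in no E9.5 library. Closed in both ATAC libraries were chr6:87052854-87053361, marked in tailbud alone, and chr2:174633767-174634532, marked in replicate 2 of each tissue. In sum 9 of 11 were open with Chiron and 4 of 11 in IWP2 (36.4%, interval 15.2 to 64.6%).

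The widest of the chosen regions looked alike in these lists. The 5 widest were chr8:90976017-90979752 (3736 bp), chr17:34256503-34259833 (3331 bp), chr8:91093580-91096704 (3125 bp), chr8:73418286-73421340 (3055 bp) and chr17:35086687-35089707 (3021 bp). Each was open in both ATAC libraries and acetylated in all 4 E9.5 libraries. Cdx2 in both replicates overlapped the one at chr8:91093580-91096704, and neither factor overlapped the other 4 in any list.

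The densest H3K27ac regions of replicate 1 held 6 CBP-P300 regions each. They were chr5:143579581-143586115 (6535 bp), chr10:41993250-41998680 (5431 bp) and chr11:77975392-77980452 (5061 bp). All 12 of the CBP-P300 regions in the stretches on chromosomes 5 and 10 were open in both ATAC libraries. In the stretch on chromosome 11, the first and the last of the 6, chr11:77975619-77976173 and chr11:77980202-77980484, were closed in both, and the 4 between them were open. The last was acetylated in tailbud replicate 2 alone, and the first in all E9.5 libraries but anterior replicate 1. That library also lacked the first region of the stretch on chromosome 10, chr10:41993996-41994303. The other 15 were acetylated in all 4 E9.5 libraries, and neither Cdx2 nor T overlapped any of the 18.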

How the data were processed

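The authors deposited 1 list of regions per ChIP or ATAC sample, in mm9 and with no score. Per the submitters' processing notes, the tools included Bowtie 1.1.0, Bowtie2 2.1.0, cutadapt 1.8.1, SAMtools 0.1.19 and MACS2 2.1.0; thresholds and the use of inputs are not given in the sources used here. Overlap meant at least 1 bp. Bound meant overlap with a region of each replicate, and sites are regions found in both replicates, merged. Shares carry 95% Wilson, differences Newcombe and splits exact Clopper-Pearson intervals, computed with Python 3.11.15, numpy 2.4.6 and scipy 1.17.1, after the overlap code was tested on simulated data. E9.5 tissues were compared by an exact permutation test over 4 libraries, and within replicate numbers, which share an antibody batch for replicate 1 per the labels.

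EpiSC RNA was used as deposited CEL-seq counts per gene, scaled to CPM by each library's total of 1586583 to 2914870 counts in WT cells at 24 h. The RNA of nearest genes and the sequence content of the regions were not analysed here, since no mm9 annotation or genome was used, so regions are named by position alone. Named regions are the 5 widest, those in the 3 H3K27ac regions with most of them, up to 5 bound ones with tailbud-only or anterior-only acetylation, and those bound by both factors in all lists, of which there were 0. The 11 T-bound regions, the positions within and between regions and the sets near sites were chosen after their values were seen. Members and lists were chosen with earlier results of these data known.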

Additional observations from a re-analysis of the deposited data

How the results depend on the processing

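No recomputed difference between classes or tissues changed sign, and 45 of 71 recomputed values were classed as unchanged. For shares and differences this meant lying within the interval or spread of the value reported. The 45 include the recomputed counts of chosen regions, from 10186 to 12051 against 10448, which have no interval or spread. Asking that 50% of a region be covered in every list gave excess openness over regions without EpiSC H3K27ac of 53.5 points with Chiron and 54.7 points in IWP2. A Chiron share among regions open once of 75.0% followed, with Cdx2 at 0.0294% and T at 0.0196% of regions. Asking that the midpoint be covered gave 53.4 and 54.7 points, 74.2%, 0.0393% and 0.0196%. The Chiron share over all CBP-P300 regions was not recomputed at these settings. Choosing regions without EpiSC H3K27ac replicate 1 or without replicate 2 gave excess openness of 44.5 to 47.7 points with Chiron and 43.98 to 47.4 points in IWP2, a Chiron share of 76.3% to 80.5%, Cdx2 at 0.623% to 0.657% and T at 0.124% to 0.125%. By width, the Chiron excess was 54.7 points at 500 to below 1000 bp and 57.2 points at 1000 to below 2000 bp, where the IWP2 excess was 59.5 points. Tailbud minus anterior was 1.52 points at 2000 bp and over. Using 1 replicate of a factor gave 0.909% to 1.12% for Cdx2 and 0.191% to 0.278% for T, and either replicate 1.40% and 0.364%. Of 8 values added after the data were seen, overlap with a merged site gave 0.938% for Cdx2, and a merged site within 1 kb 2.40% for Cdx2 and 0.603% for T. The cause of these shifts was not tested.

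With the replicate number as a block, tailbud minus anterior was 4.46 points (exact p = 0.5, the smallest that 2 pairs allow). It changed no call. Leaving out 1 replicate gave 2.57 to 6.34 points, and for regions bound by Cdx2 13.6 to 27.3 points.

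Lists without scores or counts hide signal just under the calling threshold, and a deeper library lists more regions. CBP-P300 and each ATAC condition rest on 1 library. Alternatives on nearest genes were not run.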

Other observations

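Acetylation with and without the coactivators was compared among the H3K27ac regions of EpiSC replicate 1 that replicate 2 shared. Of these, 8544 held at least 1 acetylated CBP-P300 region and 12919 met no CBP-P300 region. Those with one were wider, with a median width of 1438 bp against 670 bp for those without. They were more often open with Chiron, at 93.8% against 78.8%, and in IWP2, at 91.1% against 76.5%. Among regions of 300 to below 1000 bp, the Chiron shares were 86.9% with CBP-P300 and 73.3% without, a difference of 13.5 points (Newcombe interval 11.9 to 15.1). Among regions of 1000 to below 2000 bp the Chiron shares were 95.9% with CBP-P300 and 91.6% without, a difference of 4.29 points (Newcombe interval 3.13 to 5.47), and at 2000 bp and over 98.2% with and 97.2% without, a difference of 0.991 points (interval -0.275 to 2.84).

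Cdx2 and T differed in this comparison. Cdx2 replicate 2 overlapped 2.98% of the acetylated regions with CBP-P300 and 1.26% of those without, a difference of 1.72 points (interval 1.32 to 2.14), and Cdx2 replicate 1 overlapped 1.94% of those with and 0.735% of those without. At 300 to below 1000 bp the shares were 2.97% with and 1.19% without in Cdx2 replicate 2, and 2.25% with and 0.640% without in Cdx2 replicate 1. At 1000 to below 2000 bp the shares were 2.57% with and 1.36% without in Cdx2 replicate 2, and 1.64% with and 0.882% without in Cdx2 replicate 1. At 2000 bp and over, Cdx2 replicate 1 had 2.04% with and 1.51% without. The interval of that difference, -0.988 to 1.51 points, includes 0. In the same width bin Cdx2 replicate 2 was higher with CBP-P300 by 1.71 points (interval 0.0205 to 2.89). T replicate 1 overlapped 0.843% of those with and 0.759% of those without, a difference of 0.0841 points (interval -0.155 to 0.340), and T replicate 2 overlapped 0.527% of those with and 0.681% of those without, a difference of -0.154 points (interval -0.360 to 0.0641). At 1000 to below 2000 bp T replicate 1 was the lower one with CBP-P300, at 0.548% against 1.103%. It had 0.799% with and 0.608% without at 300 to below 1000 bp, and 1.31% with and 1.32% without at 2000 bp and over. The intervals of both these differences include 0, as do those of T replicate 2 in every width bin. This comparison was chosen after the data had been seen, and its intervals cover the counting of regions alone.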
